A study of Mus musculus with 6 samples.

Results

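The chemokine ligand genes are those whose symbol begins with Ccl, Cxcl, Xcl or Cx3cl followed by a digit, and 34 of the 22180 genes that could be tested on the arrays met this rule. A gene was taken only from probe sets that carry 1 gene symbol, and from the brightest of them by the mean over all 6 arrays. Ccl19, the Ccl21 genes and Ccl27b are not among the 34, because their probe sets carry several symbols. By their usual main source the 34 genes were placed in 3 classes: 6 that T cells make, 15 of myeloid cells and 13 of stromal cells, the last taken to include epithelium and endothelium. Many of them have more than 1 source, among them Ccl3, Ccl4 and Ccl5, which natural killer cells and macrophages also make.

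The arrays measured RNA of CD4 T cells from the lungs of wild-type mice that had been sensitised to and challenged with house dust mite (HDM), an allergen source used to provoke allergic airway inflammation, or handled likewise with PBS, the saline vehicle. Both groups were of wild-type genotype and held 3 arrays, 1 array per sample, and the samples were titled as biological replicates numbered 1 to 3. The number of mice behind a sample, their strain and age, the doses and the days of treatment are not stated in the labels, and each p-value therefore speaks only of the spread among the samples at hand. The sort took CD4+ CD45+ cells of digested lung that carried neither CD11b, a myeloid integrin, nor the macrophage surface protein encoded by Adgre1. With so few arrays the precision of every value is limited.

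Chemokines are small secreted proteins that form gradients along which leukocytes migrate, and each acts on one or a few G protein-coupled receptors of the CCR, CXCR, XCR or CX3CR families. T cells are mostly known in allergic lung as the cells that follow these gradients, through receptors such as CCR4 and CCR8, while macrophages, dendritic cells, epithelium and endothelium release many of the ligands. Activated T cells also release some, such as CCL1, CCL3, CCL4, CCL5 and XCL1. All values below are log2 signals on the relative scale of the deposited table, where no gene has a value of 0 and a signal alone does not show that a gene is expressed.

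Markers of the labelled cell type were bright: the mean of 8 T cell genes, Cd3e and Cd4 among them, lay between 12.16 and 12.24 in HDM arrays and between 12.10 and 12.12 in PBS arrays. The arrays numbered 3 stood apart in both groups. The value of the array numbered 3 was the highest of its group in both groups for 13 of the 34 ligands, or 38.2%, against 19.1% of all genes. This was not particular to ligands. Over lists of cell type markers the same share ran from 0% for platelets to 87.5% for dendritic cells, with 25% for the T cell genes. Deviations from the group mean correlated across genes between arrays of the same number, at 0.43, 0.17 and 0.53 for numbers 1, 2 and 3. HDM replicate 2 with PBS replicate 1 gave 0.25, and the labels do not explain the numbers, so it is not settled that they mark pairs. Values with the number as a block in the fit are given where they change a call, and hold only if they do. Values that leave out the pair numbered 3, a setting added after the data were seen, stand beside them.

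In HDM arrays 4 of the 34 ligand genes were higher by limma at an adjusted p below 0.05, and all 4 were of the myeloid class: Ccl6 and Ccl9, which act on CCR1 and are made by macrophages, Ccl17, which attracts CCR4-bearing T cells, and Cxcl3, which attracts neutrophils through CXCR2. Of all genes tested, 2.39% were higher, and of the ligands 11.8%. By limma 0 of the 34 were lower, where 1.56% of all genes were. At an unadjusted p below 0.05 there were 12 in either direction, or 35.3%, against 17.8% of all genes. With the replicate block 7 ligands were higher and 4 lower, against 5.95% and 6.01% of all genes. Leaving out the pair numbered 3 gave 7 higher and 2 lower, against 5.64% and 5.98% of all genes. The 3 HDM values lay above the 3 PBS values for 8 ligands, a separation that 10.8% of all genes showed, and below them for 2, as for 11.8% of all genes. The median difference was 0.20 over the myeloid class, 0.07 over the T cell class and -0.09 over the stromal class, against -0.0063 over all genes. In bulk samples, more cells of a type and more RNA per cell cannot be told apart, and this holds for every difference below.

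**Figure D1:**
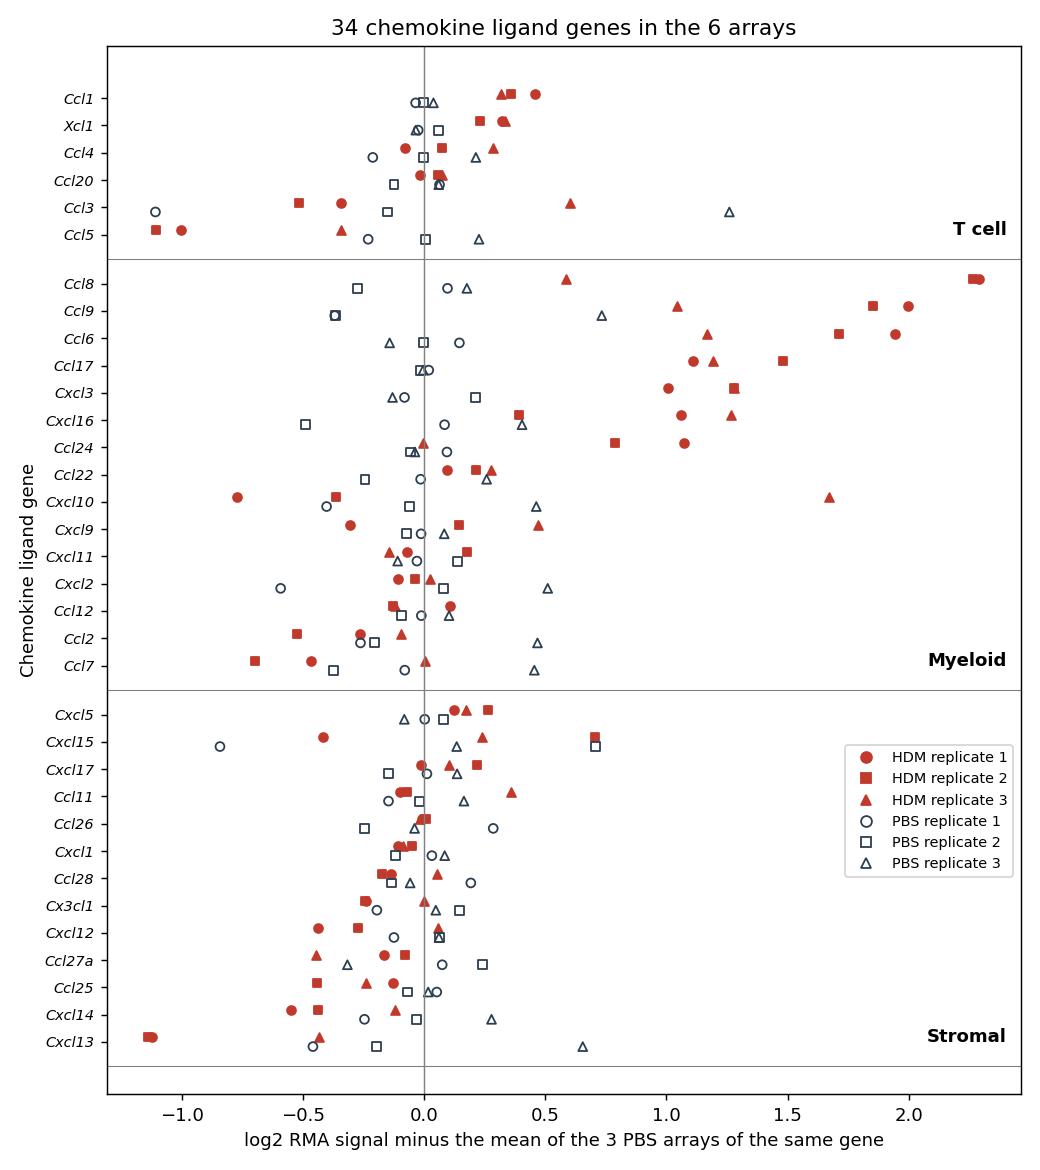
Log2 signal of each of the 34 chemokine ligand genes in the 6 arrays, given as the difference from the gene's mean over the 3 PBS arrays (x axis); filled symbols are HDM arrays, open symbols PBS arrays, and the shape gives the replicate number. The 3 HDM arrays lie to the right of the 3 PBS arrays for Ccl8, Ccl9, Ccl6, Ccl17 and Cxcl3, and by less for Ccl1, Xcl1 and Cxcl5. The triangles of replicate 3 lie to the right within both groups for Ccl3 and Cxcl13.

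Among the ligands that T cells make, none passed the test, and the 6 genes did not move one way. Ccl5, which memory and cytotoxic T cells store as messenger RNA and release on activation, had log2 signals of 11.75, 11.64 and 12.41 in HDM arrays, against 12.52, 12.75 and 12.98 in PBS arrays. Every HDM array was below every PBS array, and HDM replicate 3 came nearest to them. The difference was -0.82 ± 0.20 (SE, n = 3 per group), and limma's adjusted p of 0.0710 missed the threshold. Under the replicate block it passed (0.00276), as it did when HDM replicate 3 was left out (-1.06, 0.00384) or the pair numbered 3 (-0.94, 0.000561). It also passed with array weights (0.0148) and without genes under the median signal (0.0472). Ccl5 did not pass in the other 12 of 17 settings. Among these was the loss of any single array but HDM replicate 3 (highest adjusted p 0.233). Genes of cytotoxic lymphocytes moved with it: of 9 measured markers of natural killer and CD8 T cells, Gzma (-1.63), Klrd1 (-1.21) and Prf1 (-0.82) fell and 6 did not pass. Of all genes tested, 1.56% were lower. Gzma held in all 16 other settings in which it was tested, while dropping any array but HDM replicate 3 removed the calls of Klrd1 and Prf1 (highest adjusted p 0.128 and 0.133), as did adjustment over all probe sets. The mean of the 9 lay between 6.69 and 7.20 in HDM arrays and between 7.24 and 7.43 in PBS arrays, while Ncr1, a defining receptor of natural killer cells, differed by -0.13 and Cd8a by 0.06. The part of these cells in the Ccl5 values was not tested.

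Ccl1, a product of activated T cells that acts on CCR8, had signals of 6.97, 6.87 and 6.83 in HDM arrays, against 6.47, 6.50 and 6.55 in PBS arrays. The groups did not overlap, and the spread within each was small. Its difference of 0.38 ± 0.09, a 1.30-fold one, had an adjusted p of 0.0565, which was 0.0407 under the block and 0.0507 when the pair numbered 3 was left out. It also passed with array weights (0.0243), without genes under the 25th percentile of signal (0.0440) and without the intensity trend (0.0487). Ccl1 did not pass in the other 12 of 16 settings. Leaving out single arrays gave adjusted p of 0.0542 to 0.208. Xcl1, which CD8 T and natural killer cells also make and which draws XCR1-bearing dendritic cells, had 8.16, 8.07 and 8.18 in HDM arrays, against 7.82, 7.90 and 7.81 in PBS arrays. These did not overlap either, but the difference of 0.29 ± 0.09 did not pass in the fit (adjusted p = 0.127) or with the block (0.0704).

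The 3 remaining T cell ligands had overlapping groups. Ccl3 and Ccl4, neighbouring genes of inflammatory chemokines, varied with the array number. Ccl3 had 9.20, 9.03 and 10.15 in HDM arrays, against 8.44, 9.40 and 10.81 in PBS arrays. Ccl4 had 7.00, 7.15 and 7.36 in HDM arrays, against 6.87, 7.08 and 7.29 in PBS arrays. For both genes the array numbered 3 was the highest of its group. The difference for Ccl3 was -0.09 with a 95% interval of -1.37 to 1.19, and the direction turned when single arrays were left out, between -0.64 and 0.54. For Ccl4 it was 0.09, with an interval of -0.23 to 0.42 and a range of -0.013 to 0.20 without single arrays. Ccl20, which Th17 cells and epithelium make and which acts on CCR6, had 6.26, 6.33 and 6.35 in HDM arrays, against 6.34, 6.15 and 6.34 in PBS arrays. These values interleaved, with a difference of 0.04 and an interval of -0.17 to 0.25 (-0.023 without PBS replicate 2).

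**Figure D2:**
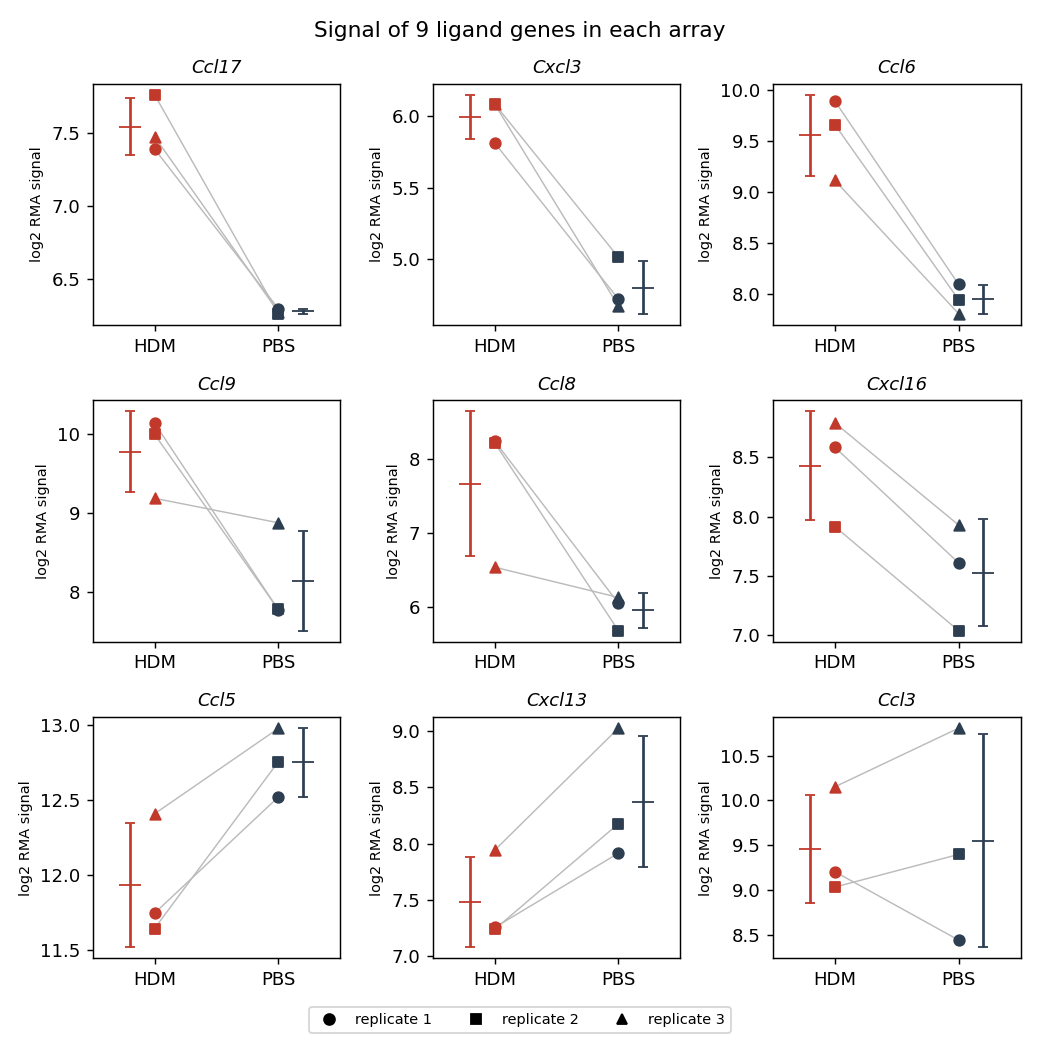
Log2 signal of selected ligand genes in each array (points) with the group mean and its SD (bar beside the points), HDM left of PBS, n = 3 per group; grey lines join arrays of the same number and each panel has its own y range. The groups do not overlap for Ccl17, Cxcl3, Ccl6, Ccl9, Ccl8 and Ccl5, and HDM replicate 3 lies nearest to the PBS arrays for Ccl6, Ccl8, Ccl9 and Ccl5.

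Among the 4 myeloid ligands that rose, Ccl17 had the smallest SE. Ccl17, the ligand of CCR4 that dendritic cells release and that draws Th2 and regulatory T cells, is represented by probe set 17504138. It had signals of 7.39, 7.76 and 7.47 in HDM arrays, against 6.30, 6.26 and 6.28 in PBS arrays. The 3 PBS arrays were nearly equal, and every HDM array lay above them. Ccl17 was 2.40-fold higher (log2 difference 1.26 ± 0.11, adjusted p = 0.00249) and passed under all 17 other settings. By its mean over all arrays, it stood at percentile 50.4 of all genes. Ccl22 and Cx3cl1, which precede it on chromosome 8 in the RefSeq annotation of GRCm38.p6, did not pass. Ccl22, the other CCR4 ligand, had 6.22, 6.34 and 6.40 in HDM arrays and 6.11, 5.88 and 6.38 in PBS arrays, a difference of 0.20 with an interval of -0.12 to 0.51. The difference between the 2 CCR4 ligands was not itself tested.

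The bases upstream of Ccl17 are shown because it was, with Ccl6, one of the 2 ligands whose call held under all 17 other settings, and because one search motif was found in no other ligand's window. The window runs over the 250 bases before the annotated start (RefSeq, GRCm38.p6, chr8:94810203-94810452, plus strand), and capitals mark the match to TTCNNNNGAA, the spacing that STAT6 prefers.
Ccl17: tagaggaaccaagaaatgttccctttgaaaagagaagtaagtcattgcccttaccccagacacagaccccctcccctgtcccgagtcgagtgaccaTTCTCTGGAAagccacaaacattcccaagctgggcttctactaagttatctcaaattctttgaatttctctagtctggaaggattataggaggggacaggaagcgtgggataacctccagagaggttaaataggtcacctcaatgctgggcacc

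Promoter windows were found in RefSeq for 23 of the 34 ligands, in 26 windows, and were searched on both strands for 9 motifs chosen after the values were seen. TTCNNNNGAA was present in 5.85% of all 32851 promoter windows, and in the windows of the ligands it was found for Ccl17 only. TTCNNNGAA, the spacing of other STAT proteins, was in 7.02% of all windows and in those of Ccl17 and Cxcl14. The search also took in TGANTCA, in 6.75% of all windows, with Ccl27a, Ccl9 and Cxcl10 among the ligands. GAAANNGAAA was in 2.98%, with Cxcl10 and Cxcl14, and TATAAA in 12.4%, with 9 of the windows of ligands. TTTCCA, the core of NFAT sites, was in 18.6% of all windows and in 6 of the 26, Ccl17 among them, and TGACGTCA was in 1.55% and in 0 of the 26. A match is a string of letters and was not tested for binding.

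Cxcl3, a neutrophil attractant that shares its receptor CXCR2 with Cxcl1 and Cxcl2, rose too (probe set 17438975). It had signals of 5.81, 6.08 and 6.08 in HDM arrays, against 4.72, 5.01 and 4.67 in PBS arrays. The groups did not overlap, and the smallest HDM value lay well above the largest PBS value. Cxcl3 was 2.28-fold higher (1.19 ± 0.12, adjusted p = 0.00378), and passed in each of the 15 other settings in which it was tested. It was a dim gene, at percentile 19.5 of all genes, and so was left out by both filters on dim genes. Cxcl2 had 9.06, 9.13 and 9.19 in HDM arrays, against 8.58, 9.25 and 9.68 in PBS arrays, and its difference of -0.04 had an interval of -0.60 to 0.52. Cxcl1 had 6.22, 6.27 and 6.24 in HDM arrays, against 6.36, 6.21 and 6.41 in PBS arrays, and its difference of -0.08 had an interval of -0.29 to 0.13. The HDM values of both genes overlapped the PBS values.

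These 3 genes lie in one cluster on chromosome 5, which in the same annotation runs Cxcl3, Cxcl15, Cxcl1 and Cxcl2. The windows of 150 bases before their starts are shown to set the gene that rose beside the 2 that did not pass, since all 3 hold the same letters. Capitals mark the match to GGGANTTTCC, a form of the NF-kB site, in windows at chr5:90785951-90786100, chr5:90891095-90891244 and chr5:90903749-90903898 (RefSeq, GRCm38.p6, plus strand).
Cxcl3: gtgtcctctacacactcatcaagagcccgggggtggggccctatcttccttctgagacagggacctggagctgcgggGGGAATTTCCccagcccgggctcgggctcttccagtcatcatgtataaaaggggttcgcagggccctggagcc
Cxcl1: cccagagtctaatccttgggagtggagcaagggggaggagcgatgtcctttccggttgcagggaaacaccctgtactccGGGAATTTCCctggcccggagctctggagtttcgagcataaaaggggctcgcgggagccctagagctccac
Cxcl2: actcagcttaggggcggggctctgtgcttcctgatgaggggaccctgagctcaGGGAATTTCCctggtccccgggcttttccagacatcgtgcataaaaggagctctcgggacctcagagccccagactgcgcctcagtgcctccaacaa

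This form of the site was in 0.356% of all promoter windows, and of the ligands only these 3 held it. A looser form, GGGNNNNNCC, was in 45.8% of all windows and in 14 of the 26 windows of ligands. The match ended 64 bases before the start in Cxcl3, 62 in Cxcl1 and 88 in Cxcl2, and Cxcl3 also held TATAAA downstream of it. The presence of the same letters in genes with and without a call shows no more than that they are in these windows.

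Ccl6 and Ccl9 are neighbours on chromosome 11, lying between Ccl5 and Ccl3 in the annotation, and are rodent chemokines of macrophages that act on CCR1. Ccl6 (probe set 17266960) had signals of 9.89, 9.66 and 9.11 in HDM arrays, against 8.09, 7.94 and 7.80 in PBS arrays. The groups did not overlap, with HDM replicate 3 the lowest of its group. Ccl6 was 3.05-fold higher (1.61 ± 0.19, adjusted p = 0.00593) and passed under all 17 other settings. Ccl9 (probe set 17266952) had 10.13, 9.99 and 9.18 in HDM arrays, against 7.77, 7.77 and 8.87 in PBS arrays. HDM replicate 3 was the lowest of its group and PBS replicate 3 the highest of its group, so the pair numbered 3 differed by 0.31, against 2.36 and 2.22 for the pairs numbered 1 and 2. Ccl9 was 3.10-fold higher (1.63 ± 0.35, adjusted p = 0.0434), and the call was lost without HDM replicate 1 (0.158), HDM replicate 2 (0.169), PBS replicate 1 (0.139) or PBS replicate 2 (0.191), with robust eBayes (0.0570) and with adjustment over all probe sets (0.0741). It passed with the replicate block (0.0283).

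Ccl8, which in the mouse acts on CCR8 and draws Th2 cells, had signals of 8.25, 8.22 and 6.54 in HDM arrays, against 6.05, 5.68 and 6.13 in PBS arrays. All 3 HDM values were above the PBS values, but HDM replicate 3 lay far below the other 2 and 0.41 above its same-numbered PBS array. The difference of 1.71 ± 0.42 did not pass (adjusted p = 0.0708). Array weights (0.00927) and the replicate block (0.0245) each brought it past the threshold, as did leaving out HDM replicate 3 (2.28, 0.000403) or the pair numbered 3 (2.37, 0.000124). Ccl8 did not pass in the other 12 of 16 settings. Among these was the loss of any single array but HDM replicate 3 (highest adjusted p 0.256). Ccl8 lies between Ccl12 and Ccl1 in a run of 6 ligands on chromosome 11 that starts with Ccl2, Ccl7 and Ccl11, and of the 6, 0 passed by limma with the intensity trend over all genes and arrays, without block or weights. Ccl1 and Ccl8 had an unadjusted p below 0.05 there, and Ccl1, Ccl7 and Ccl8 passed with the block.

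Cxcl16, a membrane-bound chemokine that macrophages and dendritic cells carry and that binds CXCR6, had signals of 8.59, 7.92 and 8.79 in HDM arrays, against 7.61, 7.04 and 7.93 in PBS arrays. The groups overlapped, since HDM replicate 2 lay just below PBS replicate 3, but the same-numbered arrays differed by 0.98, 0.88 and 0.86. Its difference of 0.91 ± 0.28 had an adjusted p of 0.130 without the block, 0.00115 with it and 0.0465 when the pair numbered 3 was left out. Ccl7, a monocyte attractant, had 6.84, 6.61 and 7.31 in HDM arrays, against 7.23, 6.93 and 7.76 in PBS arrays. Its values ran in parallel across the numbers, lower by 0.39, 0.32 and 0.45 in HDM arrays. The difference of -0.39 ± 0.24 had an adjusted p of 0.476 without the block and 0.0308 with it.

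Markers of macrophages were also measured. Of 15 measured macrophage markers, 4 rose (Retnla 3.85, Mmp12 2.59, Chil3 2.11 and Itgax 1.06) and 11 did not pass, where 2.39% of all genes rose. The mean of the list lay between 8.38 and 8.79 in HDM arrays and between 7.53 and 7.70 in PBS arrays. The genes of the proteins gated against did not pass, with a difference of 0.39 ± 0.24 for Adgre1 and of -0.02 ± 0.23 for Itgam. With the replicate block 7 of the 15 markers were higher, against 5.95% of all genes. The 4 calls were lost when single arrays were dropped, for Retnla and Mmp12 with any array but HDM replicate 3 and for Chil3 and Itgax with any 1 of 4 (highest adjusted p 0.0919, 0.164, 0.110 and 0.132). HDM replicate 3 was the lowest HDM array for 6 of the 15 markers, Retnla, Mmp12 and Chil3 among them, and the highest for 6 others, Adgre1, Lyz2 and C1qb among them. Of 10 markers of monocytes and neutrophils, 0 passed by limma, 0 with the block and 0 at an unadjusted p below 0.05, and their mean lay between 6.60 and 7.32 in HDM arrays and between 6.64 and 7.45 in PBS arrays. Of 8 measured dendritic cell markers 6 had a positive difference, while 51.6% of all genes had a negative one. Among the 8, 0 passed by limma and 3 were higher with the block, against 5.95% of all genes. The 3 were H2-Ab1 (0.71, adjusted p = 0.00831 with the block), H2-Aa (0.59, 0.0150) and H2-Eb1 (0.63, 0.0183). Flt3 and Zbtb46 differed by -0.013 and -0.015. The part of macrophages or of dendritic cells in the values of Ccl6, Ccl8, Ccl9, Ccl17, Cxcl3 and Cxcl16 was not tested.

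**Figure D3:**
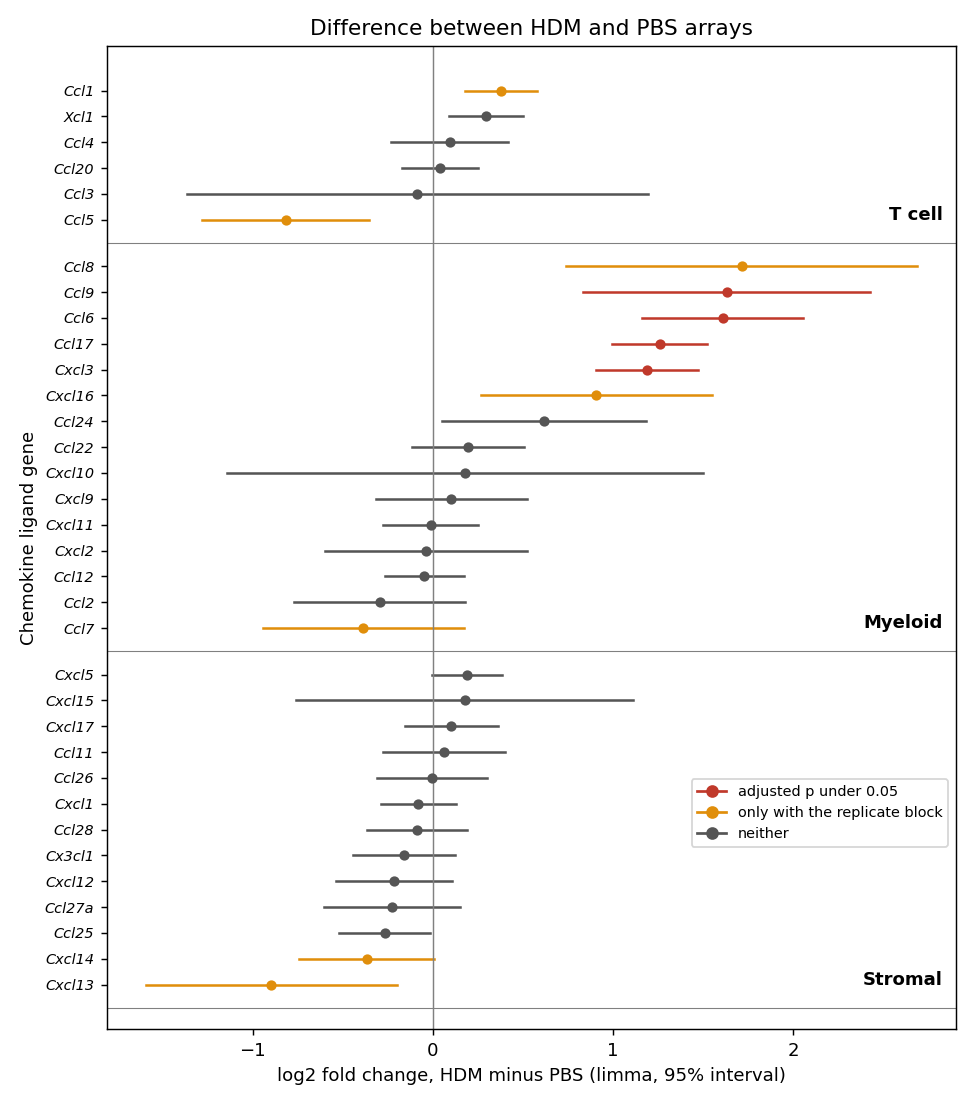
Log2 difference of HDM minus PBS for each of the 34 ligand genes with its 95% interval from limma (n = 3 arrays per group), grouped by class. The 4 genes that passed, Ccl6, Ccl9, Ccl17 and Cxcl3, lie at 1.61, 1.63, 1.26 and 1.19, all in the myeloid class.

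None of the 13 stromal ligands passed, and 9 of them (69.2%) had a negative difference, as had 51.6% of all genes. Cxcl13, the attractant that guides CXCR5-bearing B cells and T cells into follicles, had signals of 7.25, 7.24 and 7.94 in HDM arrays, against 7.91, 8.18 and 9.03 in PBS arrays. HDM replicate 3 lay just above PBS replicate 1, and each HDM array was below the PBS array with its number, by 0.66, 0.94 and 1.09. The difference of -0.90 ± 0.30 had an adjusted p of 0.164 without the block, 0.00270 with it and 0.00507 when the pair numbered 3 was left out. Cxcl14, a chemokine of epithelium and fibroblasts, had 6.38, 6.50 and 6.81 in HDM arrays, against 6.69, 6.90 and 7.21 in PBS arrays. Each HDM array was again below its number in PBS, and the difference of -0.37 ± 0.16 had an adjusted p of 0.291 without the block and 0.0377 with it.

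Markers of the stromal cell types did not move one way. All 7 measured endothelial markers had a negative difference, as had 51.6% of all genes. Pecam1 fell (-0.51 ± 0.08), where 1.56% of all genes did, a call lost without any 1 of 4 arrays (highest adjusted p 0.0961). With the replicate block 4 of the 7 markers were lower, against 6.01% of all genes. Their mean lay between 7.15 and 8.38 in HDM arrays and between 7.64 and 8.71 in PBS arrays. Pecam1 differed from the rest of the list, standing at percentile 98.0 of all genes. Its SD over the PBS arrays was 0.027, against 0.476 to 1.02 for the other endothelial markers, and which cells gave its signal was not tested. The 7 fibroblast markers had negative differences too, with 0 passing by limma and 2 lower with the block, against 6.01% of all genes. Their mean lay between 6.25 and 6.87 in HDM arrays and between 6.46 and 7.24 in PBS arrays. Of 8 epithelial markers 5 had a positive difference, and Cdh1, the adhesion protein E-cadherin, rose (0.82 ± 0.15, adjusted p = 0.0292). This call was lost when any array but HDM replicate 3 was dropped (highest 0.113). It was also lost when the probe sets of a gene were averaged and with adjustment over all probe sets. Over all other settings the difference of Cdh1 ran from 0.451 to 0.947. With the block 1 epithelial marker was higher and 1 lower, against 5.95% and 6.01% of all genes. The mean of the epithelial list lay between 7.89 and 8.44 in HDM arrays and between 7.69 and 8.39 in PBS arrays. The part of these cells in the values of Cxcl13 and Cxcl14 was not tested.

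The other 19 ligands differed by between -0.30 and 0.62, with adjusted p of 0.232 or more. At the upper end was Ccl24, an eotaxin that acts on CCR3, with 7.34, 7.05 and 6.26 in HDM arrays and 6.36, 6.21 and 6.23 in PBS arrays. HDM replicates 1 and 2 were above every PBS array while HDM replicate 3 lay within their range. The difference of 0.62 ± 0.24 had an adjusted p of 0.232 without the block and 0.0676 with it. It was 0.91 when the pair numbered 3 was left out (0.00508). At the lower end was Ccl2 (-0.30), a monocyte attractant whose interval ran from -0.77 to 0.18. Cxcl5 (0.19), a neutrophil attractant of epithelium, and Ccl25 (-0.27), the ligand of CCR9, had groups that did not overlap, but differences too small to pass (adjusted p = 0.296 and 0.244).

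The interferon-induced ligands of CXCR3, Cxcl9, Cxcl10 and Cxcl11, differed by 0.10, 0.18 and -0.013. Cxcl10 had 7.92, 8.33 and 10.36 in HDM arrays, against 8.29, 8.63 and 9.15 in PBS arrays. Its replicate 3 arrays were the highest in both groups, and its interval ran from -1.14 to 1.501, so a difference of either sign was within the error. Cxcl11 is annotated as a transcribed pseudogene in GRCm38.p6. Of the remaining ligands, Cxcl12 (-0.22), the ligand of CXCR4, Cx3cl1 (-0.16), the membrane-bound fractalkine, Ccl27a (-0.23), a skin chemokine, and Ccl28 (-0.09), a mucosal one, had negative differences, as had Ccl12 (-0.05), a ligand of CCR2. Cxcl15 (0.18), a chemokine of mouse lung epithelium, Cxcl17 (0.10), a mucosal one, and Ccl11 (0.06), an eotaxin, had positive ones, and Ccl26 was at -0.00495. A second, dimmer probe set of Ccl27a differed by -0.28.

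The receptors of these ligands were read in the same fit, and of 18 measured chemokine receptors 8 rose and 1 fell. These were 44.4% and 5.56% of the receptors, against 2.39% and 1.56% of all genes. With the replicate block 10 were higher and 1 was lower, against 5.95% and 6.01% of all genes. The added 2 were Cxcr3 (0.46, adjusted p = 0.0118 with the block) and Cxcr5 (0.44, 0.0354). Among 31 pairs of a ligand with a receptor it is known to bind, both genes rose in 3: Ccl6 with Ccr1, Ccl9 with Ccr1, and Ccl17 with Ccr4. Ccr1, a receptor of myeloid and effector T cells, rose by 1.68 (± 0.18, adjusted p = 0.00434), and Ccr4, the receptor of Th2 and regulatory T cells, rose by 1.17 (± 0.12, adjusted p = 0.00410). In 1 pair the ligand alone rose, Cxcl3 with Cxcr2, whose difference was -0.06 with an interval of -0.39 to 0.26. In 15 pairs the receptor alone rose, and in 12 neither gene passed. With the block both were higher in 6 pairs, with Ccl1 and Ccl8 beside Ccr8 and Cxcl16 beside Cxcr6 added. In 5 pairs the receptor was then higher and the ligand lower, in 11 the receptor alone passed, in 1 the ligand alone, and in 8 neither. A receptor or ligand was counted in every pair it belongs to, so the pairs are not separate observations. Both groups of genes were measured on the same arrays, and sharing a pair says nothing of which cell made which transcript.

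Ccr8, the receptor of Ccl1 and Ccl8, rose by 2.25 (± 0.27), with 11.50, 11.77 and 11.87 in HDM arrays and 8.76, 9.74 and 9.87 in PBS arrays. Cxcr6, the receptor of Cxcl16, rose by 2.51 (± 0.15), with 11.89, 12.02 and 11.42 in HDM arrays and 9.25, 9.24 and 9.31 in PBS arrays. Neither receptor's groups overlapped, and both calls held under all 17 other settings. Ccr3, which binds Ccl5, Ccl7, Ccl11 and Ccl24, rose by 1.90, and Ccr2, which binds Ccl2, Ccl7 and Ccl12, rose by 1.85, while none of these ligands passed. Ccr6 (1.01), the receptor of Ccl20, and Ccr9 (0.63), the receptor of Ccl25, rose as well, and Ccr7 fell (-0.66). Ccr6 lost the call without 3 single arrays and Ccr9 without 4, and Ccr7 kept it only without HDM replicate 3 among the 6 arrays left out in turn (adjusted p of up to 0.0998, 0.103 and 0.157).

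**Figure D4:**
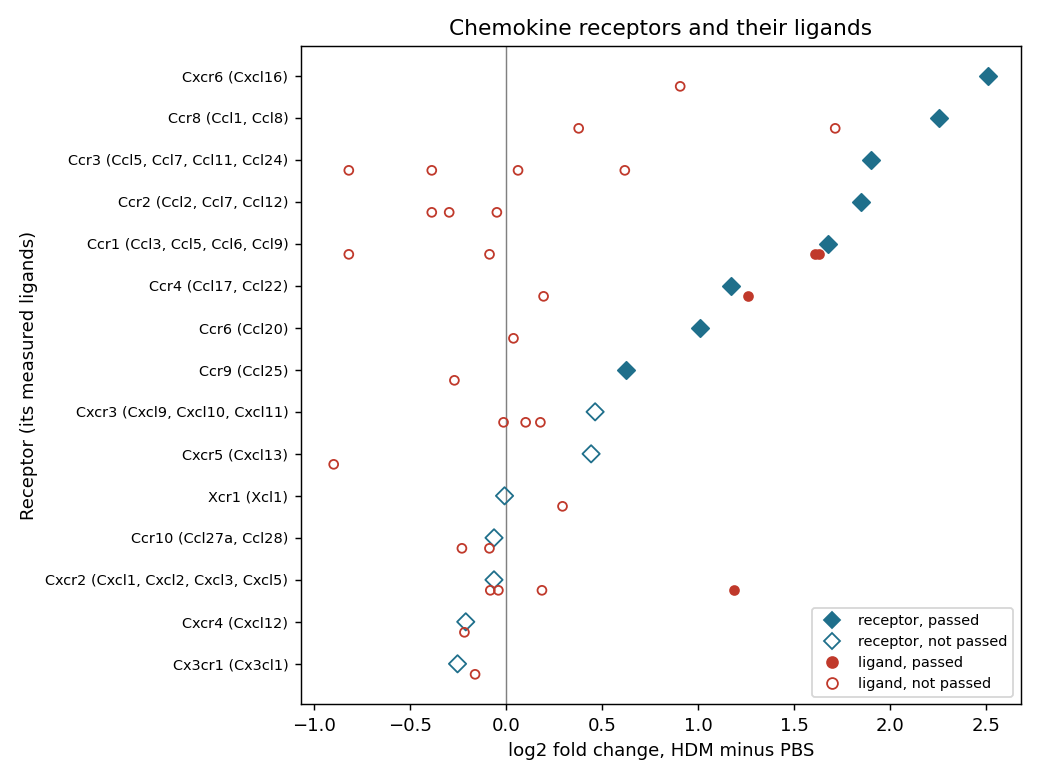
Log2 difference of HDM minus PBS (x axis) for the receptors (diamonds) and, just beneath each, its measured ligands (circles) in the 31 pairs, n = 3 arrays per group; filled symbols passed the test. Filled circles stand beside a filled diamond for Ccl6 and Ccl9 with Ccr1 and for Ccl17 with Ccr4, while Cxcl3 at 1.19 stands beside the open diamond of Cxcr2 at -0.06.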

How the data were processed

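Log2 signals per probe set were made by the authors with RMA, per the submitters' processing notes, which give no version, and were used as deposited. RMA evens out the arrays' distributions, so a shift shared by most genes cannot be seen. Values lay between 2.95 and 14.1 and array medians between 6.57 and 6.64. Any 2 arrays shared at most 5 identical values over the genes tested. No scan date or batch is given in the sources used here.

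Of 33960 probe sets, 23521 carried 1 symbol, 1814 several and 8625 none in the platform's annotation. Of the ligand probe sets, 35 carried 1 symbol and 33 several. Over these 33, tested by probe set, 0 passed by limma in either direction, and 1 was below an unadjusted p of 0.05. Among the 22180 genes tested, 17.8% were below it.

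Differences of HDM minus PBS were tested two-sided in R 4.3.3 with limma 3.58.1 (lmFit, eBayes with an intensity trend), with Benjamini-Hochberg adjustment over 22180 genes and a threshold of 0.05. SEs and 95% intervals use the moderated spread. The test was checked on simulated data whose noise was independent between arrays. That check does not cover deviations shared by arrays of the same number.

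The members, classes, gene lists, receptor pairs and tests were chosen with earlier results of these data known. All values of a ligand were given where it passed with or without the block, where T cells make it, or where its groups did not overlap and differed by at least 0.5. Values of Ccl22, Cxcl1, Cxcl2, Ccl24 and Cxcl10 were added after they were seen.

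To check whether the numbers pair the arrays, each array's deviation from its group mean was correlated across genes with that of the same number in the other group, giving 0.43, 0.17 and 0.53 for numbers 1, 2 and 3, each above the minimum of 0.1 for treating numbers as pairs. The labels do not explain the numbers, and HDM replicate 2 with PBS replicate 1 gave 0.25.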

Additional observations from a re-analysis of the deposited data

How the results depend on the processing

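The all-gene counts of 531 higher and 345 lower moved to 914 and 923 with array weights, 352 and 191 with adjustment over all probe sets, 1319 and 1334 with the replicate block, and 1250 and 1326 without both arrays numbered 3. Without genes under the median signal 557 were lower. Leaving out single arrays gave 177 to 845 higher and 41 to 722 lower. The 4 higher ligands became 7 with the replicate block, 7 without both arrays numbered 3, and 3 to 6 without single arrays. The 0 lower ligands became 4 with the replicate block, 2 without both arrays numbered 3, 1 with array weights, 1 without genes under the median, and 0 to 1 without single arrays. The 1 lower receptor became 0 without the intensity trend, 0 with adjustment over all probe sets, 2 without both arrays numbered 3 and 0 to 1 without single arrays. The myeloid median of 0.20 was 0.54 without genes under the median, where fewer genes were tested, and 0.15 to 0.45 without single arrays. The stromal median of -0.09 was -0.22 without genes under the median. The T cell median of 0.07 was 0.0090 to 0.24 without single arrays. Ccl3, at -0.09, was 0.011 with array weights and 0.20 without both arrays numbered 3, and ranged from -0.64 to 0.54 without single arrays. Ccl4 ranged from -0.013 to 0.20 and Ccl20 from -0.023 to 0.071 without single arrays. The cause of these moves was not tested. Over the ligands given in full by the stated rule and the receptor, signalling and marker genes that passed, 542 values kept direction and side of the threshold. Of the rest 69 lost the call, 19 gained it and 8 reversed. Other genes named were not followed in this tally.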

Other observations

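Genes that act downstream of chemokine receptors were described in no comparison above. Of 24 measured genes of receptor signalling, 3 rose, 2 fell and 19 did not pass, while 2.39% of all genes rose and 1.56% fell. With the replicate block 9 were higher and 4 lower, against 5.95% and 6.01% of all genes. Rgs16 and Rgs1, which shut off G protein signalling after a receptor is engaged, had 11.29, 11.42 and 11.40 (Rgs16) and 11.88, 11.96 and 11.57 (Rgs1) in HDM arrays, against 9.38, 9.98 and 9.47 (Rgs16) and 10.92, 10.93 and 10.70 (Rgs1) in PBS arrays. Their groups did not overlap, and they rose by 1.76 and 0.96 with limma's adjusted p of 0.00215 and 0.00628. Gng2, a G protein gamma subunit, rose by 0.94 (adjusted p = 0.00483). Rasgrp2, an activator of the integrin regulator Rap1, fell by 1.02 (adjusted p = 0.00683), and Pik3r5, a regulatory subunit of PI3-kinase gamma, fell by 0.57 (adjusted p = 0.0284), a call that dropping any 1 of 5 arrays removed (highest adjusted p 0.115). Of 5 atypical receptors, which bind chemokines without G protein signalling, 0 passed by limma, 0 with the replicate block and 1 at an unadjusted p below 0.05. Pf4 and Ppbp, chemokines of platelets whose symbols lie outside the family rule, differed by 0.10 (interval -0.24 to 0.44) and -0.38 (interval -1.68 to 0.91).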
